A study of Mus musculus with 6 samples.

Results

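The Smad family comprises the intracellular proteins that carry signals of transforming growth factor-beta (TGF-β), activins and bone morphogenetic proteins (BMPs) from the cell surface to the nucleus. The 8 genes Smad1, Smad2, Smad3, Smad4, Smad5, Smad6, Smad7 and Smad9 were taken by gene symbol from the 53342 genes of the deposited table, and all 8 passed the filter on low counts that left 24534 genes for testing. RNA of dental pulp was sequenced from 3 wild type (WT) and 3 Mmp13-/- mice, all aged 3 months and of the C57BL/6 strain, with no treatment stated for either group. Mmp13-/- mice are homozygous for the loss of matrix metalloproteinase-13, a collagenase, in all tissues, and the study's methods describe male animals. Each genotype has 3 biological replicates, with the numbers 2, 4 and 5 for WT, and 1, 2 and 6 for Mmp13-/-. The growth text shared by all samples gives molars, a tooth type that only the WT titles repeat, and the study's methods give incisors. The comparison asks how the loss of MMP13 goes with the expression of the Smad genes in the pulp.

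Ligands of the TGF-β superfamily assemble type I and type II receptor kinases, and the type I receptor phosphorylates receptor-regulated Smads (R-Smads). Smad2 and Smad3 are the R-Smads of TGF-β and activin receptors, and Smad1, Smad5 and Smad9 (also called Smad8) those of BMP receptors. Phosphorylated R-Smads join Smad4, the common partner (co-Smad), and enter the nucleus, where the complex regulates transcription. Smad6 and Smad7 are inhibitory Smads (I-Smads), which bind the receptors or compete for Smad4, and are themselves transcribed in response to the signal. In teeth, TGF-β and BMP signals are known for their part in odontoblast differentiation and dentin formation. Smad proteins are controlled largely by phosphorylation, which RNA does not show.

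Positions are from the GENCODE M21 annotation of GRCm38, the same assembly as the mm10 build in the submitters' processing notes. Smad3 (ENSMUSG00000032402) lies on chromosome 9 from 63646767 to 63757994 and Smad6 (ENSMUSG00000036867) on the same chromosome from 63953076 to 64022059, both on the minus strand. A gap of 195.1 kb with 3 annotated genes separates them, and these 3 genes had at most 10.96, 12 and 15.46 counts in any sample and were not tested. Mmp13 is on chromosome 9 as well, 56.4 Mb from Smad3. Smad4 (ENSMUSG00000024515, minus strand, 73639009 to 73703780), Smad7 (ENSMUSG00000025880, plus strand, 75367529 to 75395935) and Smad2 (ENSMUSG00000024563, plus strand, 76241580 to 76310963) follow each other on chromosome 18, with gaps of 1.66 Mb and 845.6 kb. Smad1 (ENSMUSG00000031681) is on chromosome 8 from 79338395 to 79399518 on the minus strand. Smad5 (ENSMUSG00000021540) is on chromosome 13 from 56703010 to 56742377, and Smad9 (ENSMUSG00000027796) on chromosome 3 from 54755582 to 54801257, both on the plus strand.

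Reads of the members can be told apart from those of other genes, since no stretch of 50 bases in the transcripts of any member but Smad9 occurs in another annotated gene, and in Smad9 0.17% of such stretches do. Smad4 overlaps 1 gene on the opposite strand and Smad5 overlaps 3 small RNA genes on its own strand. Whether the counting used strand is not given in the sources used here, so reads of Smad4 and of its opposite partner could have been counted together.

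RefSeq promoter windows (GRCm38.p6) were matched by symbol for 5 of the 8 members, Smad1, Smad3, Smad5, Smad6 and Smad9. The 250 bases before the annotated start are shown for Smad3 and Smad6, neighbours that were both lower in Mmp13-/-, and for Smad5, which was not. Each is written 5′ to 3′ on the gene's own strand, and capitals mark the letters GGGCGG or their reverse complement, the core of a GC box.
Smad3 (chr9:63757995-63758244, minus strand): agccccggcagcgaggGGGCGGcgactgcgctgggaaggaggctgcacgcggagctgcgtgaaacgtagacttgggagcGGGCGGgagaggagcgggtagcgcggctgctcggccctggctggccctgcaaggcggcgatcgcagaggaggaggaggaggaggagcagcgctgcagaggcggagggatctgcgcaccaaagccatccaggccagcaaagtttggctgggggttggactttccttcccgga
Smad6 (chr9:64022060-64022309, minus strand): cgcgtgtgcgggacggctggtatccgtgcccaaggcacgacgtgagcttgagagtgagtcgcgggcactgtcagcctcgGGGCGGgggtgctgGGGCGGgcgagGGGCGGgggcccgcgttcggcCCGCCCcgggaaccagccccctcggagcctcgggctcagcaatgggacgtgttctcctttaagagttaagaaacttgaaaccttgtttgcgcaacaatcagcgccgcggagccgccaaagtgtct
Smad5 (chr13:56702760-56703009, plus strand): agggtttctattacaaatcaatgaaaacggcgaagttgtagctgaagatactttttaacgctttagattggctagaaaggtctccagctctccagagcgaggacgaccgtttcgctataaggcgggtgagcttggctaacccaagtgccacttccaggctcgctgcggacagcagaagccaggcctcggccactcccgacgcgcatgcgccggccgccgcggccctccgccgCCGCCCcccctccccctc
The GC content of these windows was 69.2% for Smad3, 66.8% for Smad6 and 60.0% for Smad5. The median over mouse promoter windows of this length was 52.0%, taking the first window of each of 27025 genes. GGGCGG occurred 2 times in the Smad3 window, 4 times in that of Smad6 and 1 time in that of Smad5. Windows of other Smad5 starts, not shown, had 66.4% and 68.4% GC, with 1 and 7 matches. The window of Smad9, which did not pass the test, had 73.2% GC and 4 matches. That of Smad1, which was lower, had 63.6% and 1. These features therefore did not separate the called members from the others. Of all 32851 windows, 32.7% hold GGGCGG on either strand. The palindromic Smad-binding letters GTCTAGAC, present in 0.2% of all windows, and the shorter CAGACA, present in 17.1%, occurred in no window of the 5 members. GGCGCC, the letters of GC-rich sites described for BMP R-Smads, is in 9.6% of all windows and occurred in those of Smad9 and of a second start of Smad5. A match or its absence describes these letters in these windows and no more.

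Library totals were 28442936 to 29980236 estimated counts in WT and 21561420 to 26547121 in Mmp13-/-. Mmp13 had normalized counts of 816 to 1060 in WT, against 8.58, 29.8 and 62.6 in Mmp13-/- samples 1, 2 and 6 (log2 fold change −4.96, adjusted p = 7.68e-05, edgeR). The 13 annotated genes related to the mouse major satellite repeat held 0.0331% to 0.0445% of counts in WT against 5.87%, 10.3% and 46.1% in the Mmp13-/- samples, so sample 6 stands apart. Odorant and vomeronasal receptor genes, which pulp should lack, had 0.137 to 0.255 counts per kb of exon in WT and 1.63, 1.88 and 4.9 in Mmp13-/-, and a background at that rate would make up at most 2.41% (Smad3) to 14.8% (Smad9) of a member's count. All 6 odontoblast markers were detected in every sample, with 2 lower and 2 higher in Mmp13-/-. The summed normalized count of 6 skeletal muscle markers was 693000 to 936000 in WT and 126000 to 308000 in Mmp13-/- (5 of 6 lower), and that of 6 neutrophil markers 3290 to 6960 and 17100 to 42400 (6 of 6 higher). Erythroid markers summed to 13600 to 22400 in WT, against 36400 to 70100 in Mmp13-/- (5 of 5 higher), and pulp fibroblast markers to 1910000 to 2240000 and 612000 to 854000 (3 of 6 lower, 3 higher). Endothelial markers summed to 6980 to 7950 and 4820 to 6920 (3 of 6 lower, 1 higher), while 1 of 6 ameloblast markers was higher and 1 of 5 Schwann cell markers lower. None of these markers was at 0. In bulk tissue, fewer cells of a type and less RNA per cell cannot be told apart, and the part of these shifts in the Smad results was not tested.

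In WT pulp the Smad genes differed in level by more than an order of magnitude. Counts per kb of exon, which allow genes to be compared with each other, were highest for Smad3 (899 ± 41.4, SD, n = 3), followed by Smad6 (846 ± 180, SD) and Smad4 (656 ± 41.5, SD). Smad7 (453 ± 32.6), Smad5 (268 ± 20.4), Smad1 (173 ± 11.1), Smad2 (94.6 ± 5.64) and Smad9 (56.6 ± 15.7) followed in that order. Samples of Smad3 and Smad6 overlapped, as did those of Smad6 and Smad4, and every other neighbouring pair was separated. The leading R-Smad gene of WT pulp was therefore that of the TGF-β and activin branch, and both I-Smads stood above every BMP R-Smad. Exon length here joins all annotated exons of a gene. It was 6262 bases for Smad1, whose longest transcript has 3775, but 3205 for Smad6, whose longest has 2971. In both genotypes the order and the separation of pairs can depend on this length, and the order was not computed with another.

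The order was different in Mmp13-/- pulp. Smad3 (404 ± 75.02 counts per kb, SD, n = 3), Smad4 (383 ± 83.6), Smad5 (340 ± 53.6) and Smad6 (334 ± 78.6) formed a leading group in which each overlapped the next. Smad7 (152 ± 23.6), Smad1 (115 ± 16.0), Smad2 (92.7 ± 16.1) and Smad9 (57.6 ± 6.65) were lower, and of these only Smad1 and Smad2 overlapped. Smad5 thus moved from below Smad7 to above it. Summed over the 8 genes, the level was 3447 ± 238 counts per kb in WT and 1878 ± 350 in Mmp13-/-, or 54.5% of the WT level, with every Mmp13-/- sample (1475 to 2104) below every WT sample (3187 to 3654). The exact two-sided permutation test gave p = 0.1, the smallest value that 3 against 3 samples allow. This sum is without the correction for GC content described below, and was not computed with it. Of the largest members, Smad3 had a log2 fold change of −1.15 without that correction and −0.61 with it. Smad6 had −1.34 and −0.27.

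Tested gene by gene with edgeR's quasi-likelihood test, 5 of the 8 members fell in Mmp13-/- at an adjusted p under 0.05, namely Smad1, Smad3, Smad4, Smad6 and Smad7. In the fit with TMM factors and edgeR's own filter none rose at an adjusted or an unadjusted p under 0.05, and DESeq2 and limma called none higher, but edgeR called Smad5 higher under 4 other settings given with that gene. Smad2, Smad5 and Smad9 did not pass the test. Of all genes tested, 24.3% were called lower and 27.3% higher. Smad3, Smad6 and Smad7 fell over 2-fold, which 9.68% of all genes did, while 20.4% rose over 2-fold. Every Mmp13-/- sample lay below every WT sample for the same 5 members that were called, a separation found in 29.1% of all genes, and the opposite separation, found in 31.9%, occurred in no member. The median log2 fold change of the 8 members was −0.68 and that of all genes tested 0.10. Abundant genes with a GC value, a set described below that leaves out low counts, had a median of −0.335. Across groups of such genes by GC content, 4.27% to 88.1% were called lower. In the groups of the called members this was 34.7% (Smad4), 50.8% (Smad1), 65.9% (Smad3), 82.8% (Smad7) and 88.1% (Smad6). In those of the others it was 15.8% (Smad2 and Smad5) and 23% (Smad9). The share of 24.3% over all genes was thus below that of genes of like GC content for each called member.

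**Figure D1:**
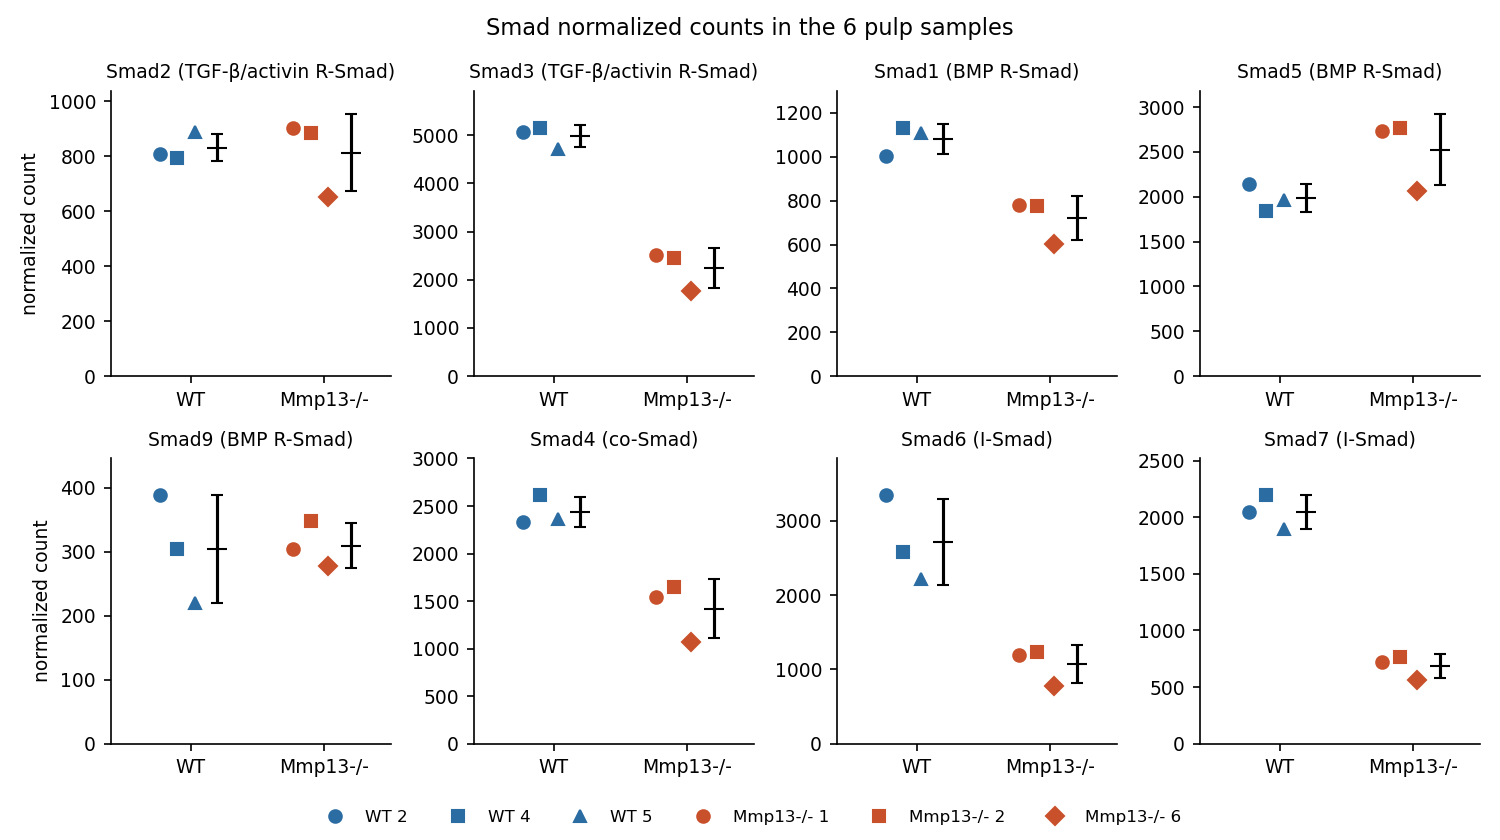
Normalized counts of the 8 Smad genes in each pulp sample, on linear axes that start at 0 and differ between panels. Each symbol is a sample, and the black bar is the mean with its SD (n = 3). The genotypes are separated for Smad1, Smad3, Smad4, Smad6 and Smad7, and Mmp13-/- sample 6 (diamond) is the lowest Mmp13-/- sample in each of the 8 panels.

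The R-Smads of the TGF-β and activin branch, Smad2 and Smad3, stood apart, in that Smad3 fell and Smad2 did not pass the test. Smad3 had normalized counts of 5074, 5153 and 4722 in WT (samples 2, 4 and 5, in this order throughout) against 2512, 2449 and 1762 in Mmp13-/- (samples 1, 2 and 6). The lowest WT sample was 1.88 times the highest Mmp13-/- sample. Smad3 fell, with a log2 fold change of −1.15 (standard error, SE, 0.17, adjusted p = 0.000568). Smad2 had normalized counts of 809.8, 795.6 and 887.6 in WT against 904.1, 886.7 and 651 in Mmp13-/-. The genotypes overlapped, with the highest and the lowest of the 6 values both in Mmp13-/-. Its log2 fold change was −0.03, with a 95% interval from −0.38 to 0.32 (adjusted p = 0.9).

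Among the R-Smads of the BMP branch, Smad1 fell and neither Smad5 nor Smad9 passed the test. Smad1 had normalized counts of 1002, 1132 and 1109 in WT against 780.6, 774.8 and 604.1 in Mmp13-/-, with no overlap. Its log2 fold change was −0.58 (SE 0.15, adjusted p = 0.00815). Smad5 had 2147, 1846 and 1967 in WT against 2738, 2770 and 2066 in Mmp13-/-. Mmp13-/- samples 1 and 2 were above every WT sample and sample 6 lay within the WT range. The log2 fold change of 0.35, with a 95% interval from −0.01 to 0.70, did not pass the test (adjusted p = 0.0941). Without Mmp13-/- sample 6, Smad5 rose, with a log2 fold change of 0.48 (adjusted p = 0.00754). With all 6 samples it was also called higher with upper-quartile factors (adjusted p = 0.00345), with factors taken without repeat genes and the 10 most abundant genes (0.0479), with genes kept only if each sample had 10 counts or more (0.0228) and after subtraction of the background rate of receptor genes (0.00889), and it had 0.08 and −0.21 under the 2 corrections for GC content described below. Smad9, the least abundant member, had 388.1, 303.9 and 219.9 in WT against 303.7, 347.6 and 277 in Mmp13-/-. Its WT samples spread more widely (coefficient of variation 27.7%) than those of any other member, all Mmp13-/- samples lay within their range, and the log2 fold change was 0.03 (95% interval −0.44 to 0.50).

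Smad4, the partner shared by both branches, fell. Its normalized counts were 2328, 2613 and 2368 in WT against 1547, 1649 and 1067 in Mmp13-/-, so that the lowest WT sample was 1.41 times the highest Mmp13-/- sample. Its log2 fold change was −0.78 (SE 0.18, adjusted p = 0.005).

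Both I-Smads fell over 2-fold, and Smad7 fell the most of the 8 members. Smad7, which recruits ubiquitin ligases to TGF-β receptors, had normalized counts of 2051, 2195 and 1900 in WT against 723.1, 767.5 and 565 in Mmp13-/-. The lowest WT sample was 2.48 times the highest Mmp13-/- sample, and the log2 fold change was −1.58 (SE 0.16, adjusted p = 9.82e-05). Only 1.78% of all genes tested had a lower log2 fold change. Smad6, which acts mainly on the BMP branch, had 3345, 2575 and 2219 in WT against 1195, 1236 and 780.9 in Mmp13-/-. The groups did not overlap although the WT samples spread more (coefficient of variation 21.2%) than those of Smad7 (7.2%), and the log2 fold change was −1.34 (SE 0.22, adjusted p = 0.000795).

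Mmp13-/- sample 6, the sample with the most repeat counts, was below the mean of samples 1 and 2 for all 8 members, by 0.23 (Smad9) to 0.64 (Smad6) on the log2 scale. Without it, Smad1, Smad3, Smad4, Smad6 and Smad7 were still called lower, and the same 5 were called when any other sample was left out. The log2 fold changes over these 6 fits ranged from −1.72 to −1.46 for Smad7, from −1.54 to −1.15 for Smad6, from −1.302 to −1.002 for Smad3, from −0.95 to −0.61 for Smad4 and from −0.71 to −0.47 for Smad1.

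The genotype difference of genes in general followed the GC content of their transcripts, and the Smad genes differ in it. Transcripts of Smad5 (44.5%), Smad2 (44.9%) and Smad9 (48.0%) have the lowest GC content of the family, and these are the 3 members that did not pass the test. Smad4 (49.4%), Smad1 (51.5%), Smad3 (53.1%), Smad7 (56.9%) and Smad6 (60.8%) follow. Abundant genes (mean log2 CPM above 3, where CPM scales each library to the same total) were divided into 10 groups by the GC content of the longest transcript. In the group lowest in GC the median log2 fold change was 0.76, and 66.3% of it was called higher. The group highest in GC, which holds Smad6, had a median of −1.12, and 88.1% of it was called lower. Smad6 at −1.34 was thus close to the genes of like GC content, whereas Smad7 at −1.58 stood against a group median of −0.90, Smad3 at −1.15 against −0.60 and Smad4 at −0.78 against −0.26. Smad1 at −0.58 was near its group's −0.44, Smad5 at 0.35 and Smad2 at −0.03 shared a group with a median of 0.13, and Smad9 at 0.03 stood against −0.07.

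**Figure D2:**
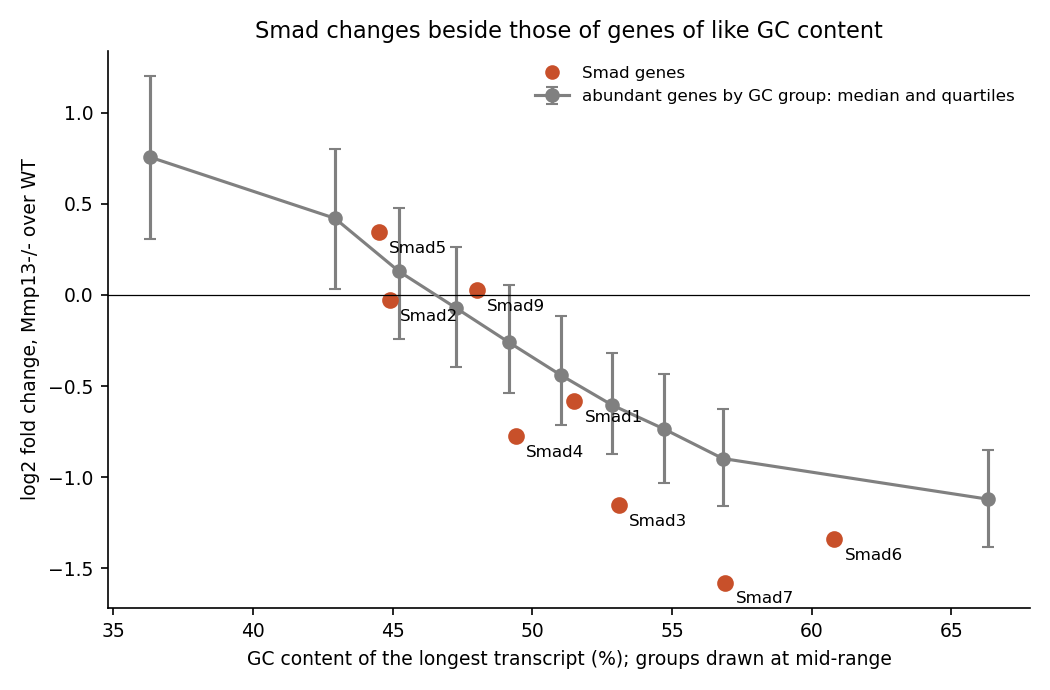
The log2 fold change of each Smad gene (orange) against the GC content of its longest transcript, over abundant genes in 10 groups of GC content (grey points with quartile bars, drawn at the middle of each group's range). Grey medians run from 0.76 in the lowest group to −1.12 in the highest. Smad3, Smad4 and Smad7 lie below the lower quartile of the nearest groups.

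Correcting every sample for GC content (a smooth curve of the gene-wise deviations against GC content, subtracted in the fit) ended the calls of Smad1 and Smad6. With it, Smad3 (log2 fold change −0.61, adjusted p = 0.00525), Smad4 (−0.55, adjusted p = 0.0087) and Smad7 (−0.73, adjusted p = 0.002) fell, each by less than 2-fold, while 13.1% of all genes were called lower and 23.7% higher. Smad6 had −0.27 with a 95% interval from −0.73 to 0.19 (adjusted p = 0.322), and Smad1 −0.16 with an interval from −0.38 to 0.05 (adjusted p = 0.196). Smad2 had −0.26 (adjusted p = 0.0731), and its Mmp13-/- samples then lay below every WT sample, while Smad5 had 0.08 (adjusted p = 0.513) and Smad9 0.13 (adjusted p = 0.646). The median over the 8 members was −0.26 after the correction. This correction also shifted the median of all genes from 0.10 to 0.22. When it was kept on the scale of the original normalization, a choice made after seeing the data, the called members were Smad1, Smad2, Smad3, Smad4 and Smad7, all lower (23.8% of all genes, with 17.1% higher), with Smad2 at −0.55 (adjusted p = 0.0157), Smad7 at −1.01 (adjusted p = 0.00144) and Smad6 at −0.55 (adjusted p = 0.086). The call for a lower level was therefore shared by the uncorrected fit and both corrections for Smad3, Smad4 and Smad7, and Smad6 lost it in both. The trend with GC content runs along the genotypes, and its part in the Smad differences cannot be told apart from that of the genotype.

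**Figure D3:**
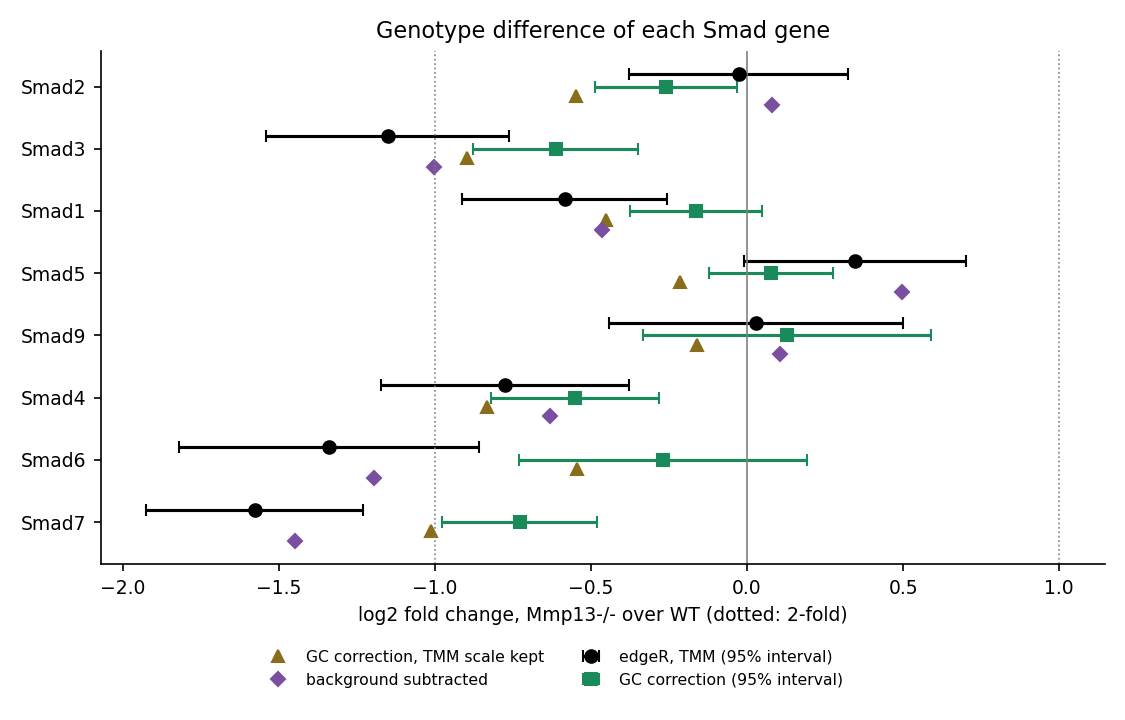
Log2 fold change (Mmp13-/- over WT) of each Smad gene in the edgeR fit (black, 95% interval), after the GC correction (green, 95% interval), after the GC correction on the original scale (triangles) and after background subtraction (diamonds), with dotted lines at 2-fold. Intervals of Smad3, Smad4 and Smad7 lie below 0 with and without the GC correction, and that of Smad6 crosses 0 after it.

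The make-up of the family was compared as shares of its summed level per kb, which do not depend on the scaling between libraries. BMP R-Smads (Smad1, Smad5 and Smad9) held 14.3%, 13.9% and 15.2% of the sum in WT against 26.8%, 26.7% and 28.9% in Mmp13-/-. I-Smads (Smad6 and Smad7) held 41.0%, 36.8% and 34.9% in WT against 25.9%, 26.4% and 25% in Mmp13-/-. The difference, Mmp13-/- minus WT, was 13.0 percentage points for the BMP R-Smads and −11.8 for the I-Smads, both without overlap. Most of the former was Smad5, whose own share was 7.78% ± 0.617 (SD, n = 3) in WT and 18.2% ± 0.607 in Mmp13-/-. A higher share does not mean a higher level, since the summed level was 3447 counts per kb in WT and 1878 in Mmp13-/-. Smad1 had 172.6 per kb in WT and 114.9 in Mmp13-/-, Smad5 267.7 and 340.3, and Smad9 56.63 and 57.64. Neither Smad5 nor Smad9 passed the test between genotypes. Smad2 and Smad3 together held 28.9% ± 1.19 in WT and 26.5% ± 0.634 in Mmp13-/-, also without overlap. Smad4 held 19.1% ± 1.68 and 20.3% ± 0.81, and its samples overlapped. The exact two-sided permutation test gave p = 0.1 for the classes that did not overlap (0.133 adjusted over the 4 classes) and p = 0.4 for Smad4, so no class passed a threshold of 0.05, which 3 against 3 samples cannot reach.

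After the GC correction the BMP R-Smad share was 17.3% ± 0.757 (SD, n = 3) in WT and 23.2% ± 1.79 in Mmp13-/-, a difference of 5.87 points that kept the genotypes apart (exact permutation p = 0.1, 0.2 adjusted). The I-Smad share was then 32.0% ± 3.49 and 31.5% ± 1.77, a difference of −0.467 points with overlapping samples (exact permutation p = 0.8). The share of Smad2 and Smad3 was 29.5% ± 0.79 and 26.3% ± 0.699, still apart. The lower I-Smad share was thus not kept after the correction, and the higher BMP R-Smad share was kept at a smaller size.

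**Figure D4:**
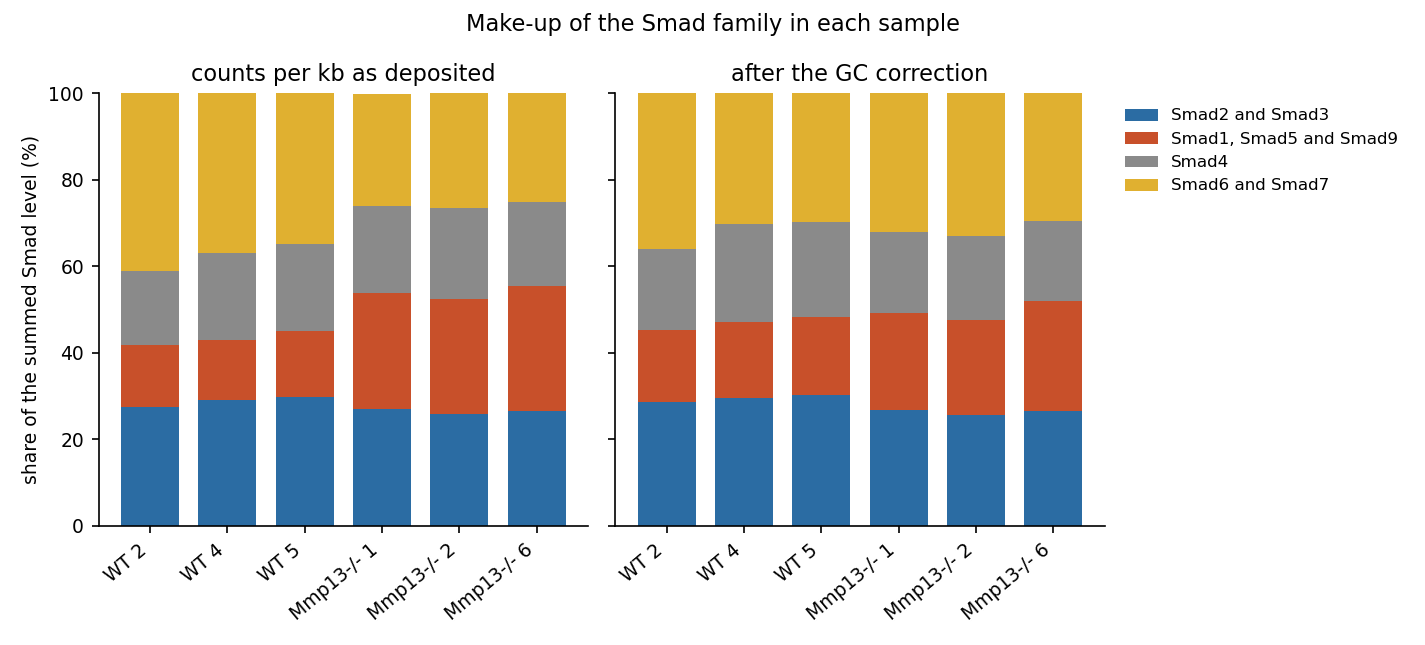
Share (%) of the summed Smad level per kb of exon held by each class in each sample, from the estimated counts (left) and after the GC correction (right). The band of Smad1, Smad5 and Smad9 is wider in the 3 Mmp13-/- samples in both panels, and the band of Smad6 and Smad7 is narrower in Mmp13-/- on the left only.

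Ratios between members of the same sample were computed per kb for 9 pairs. Smad3 stood to Smad2 at 9.93, 10.3 and 8.43 in WT against 4.4, 4.38 and 4.29 in Mmp13-/-. Smad5 stood to Smad1 at 1.81, 1.38 and 1.5 in WT against 2.96, 3.02 and 2.88 in Mmp13-/-. Within both R-Smad branches, the balance between members therefore differed between genotypes without overlap. Across branches, Smad5 was 0.298 ± 0.0267 (SD, n = 3) of Smad3 in WT and 0.845 ± 0.0308 in Mmp13-/-. Smad6 was 3.15 ± 0.503 times Smad5 in WT and 0.973 ± 0.0852 times in Mmp13-/-. Smad7 was 0.504 ± 0.0161 of Smad3 in WT and 0.377 ± 0.0209 in Mmp13-/-. Smad6 to Smad7 (1.87 ± 0.375 and 2.18 ± 0.203) and Smad6 to Smad3 (0.939 ± 0.176 and 0.821 ± 0.053) overlapped between genotypes. The exact permutation test gave p = 0.1 for each of the ratios without overlap (0.129 adjusted over the 9), the smallest value possible.

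After the GC correction, ratios shifted in both directions. Smad3 to Smad2 came closer, to 7.32 ± 0.973 (SD, n = 3) in WT and 5.69 ± 0.285 in Mmp13-/-, as did Smad5 to Smad1 (1.97 ± 0.125 and 2.33 ± 0.0394) and Smad5 to Smad3 (0.394 ± 0.0179 and 0.638 ± 0.0467), each still without overlap. Smad6 to Smad5 was 1.99 ± 0.459 and 1.56 ± 0.243, and its genotypes overlapped. Smad4 to Smad1 moved apart, from 3.81 ± 0.176 and 3.3 ± 0.309 to 4.06 ± 0.191 and 3.09 ± 0.25. Smad6 to Smad7 also moved apart, to 1.72 ± 0.336 and 2.37 ± 0.256, and Smad6 to Smad3 turned its direction, to 0.78 ± 0.149 and 0.99 ± 0.0947, with exact permutation p = 0.2 for both.

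Other genes of the Smad pathway, in 9 lists chosen by role, counted 99 without the members. Of the 98 tested, 49 fell (50%), 17 rose (17.3%) and 32 did not pass the test, against 24.3% lower and 27.3% higher among all genes, and their median log2 fold change was −0.44. After the GC correction 31 fell and 12 rose, against 13.1% lower and 23.7% higher among all genes under that correction, with a median of −0.12. The shares over all genes include genes with low counts. Abundant genes with a GC value had a median of −0.335, and −0.0592 after the GC correction. In the groups of abundant genes by GC content, 4.27% to 88.1% were called lower and 3.06% to 66.3% higher without the correction. In the middle groups, of 48.25% to 51.95% GC, 34.7% and 50.8% were called lower, and 10.3% and 6.87% higher. The shares over all genes are therefore not a like measure for these lists, and a matched share was not computed. The lists share some genes, and the counts below are therefore not independent.

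Of the 18 ligand genes, 9 fell and 1 rose, and 5 fell and 1 rose after the GC correction. Without WT sample 2 or Mmp13-/- sample 1 or 2, 2 ligands were called higher. Tgfb1, the TGF-β isoform best known from matrix stores and immune cells, fell (log2 fold change −1.76, adjusted p = 4.88e-05), as did Inhbb, the activin B subunit (−1.79, adjusted p = 6.34e-05). Bmp5, a BMP of the 60A group, was the ligand that rose (1.70, adjusted p = 0.000204). These 3 kept their direction and call after the GC correction, at −1.26, −0.69 and 1.04. Of the 14 receptors and co-receptors, 7 fell and 4 rose, but 4 fell and 1 rose after the GC correction, 3 fell with total counts alone and 2 rose without WT sample 4. Acvr2b, an activin type II receptor, fell (−1.61, adjusted p = 0.000193), and Tgfbr1, the TGF-β type I receptor that phosphorylates Smad2 and Smad3, rose (1.47, adjusted p = 0.000419). Both were called after the GC correction, at −0.96 and 0.86. Eng, an endothelial co-receptor, fell (−0.93, adjusted p = 0.000771) but had −0.04 after it (adjusted p = 0.795).

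Genes that act on the Smad proteins were mixed. Of 13 anchors, phosphatases and transport factors, 6 fell and 3 rose, with the endosomal anchor Zfyve16 higher (log2 fold change 1.19, adjusted p = 0.000225) and the phosphatases Ctdsp1 (−1.19, adjusted p = 0.000244) and Ctdsp2 (−1.20, adjusted p = 0.000513) lower. Of 12 ubiquitin ligases and deubiquitinases, 4 fell and 2 rose. The ligases Smurf1 (−1.16, adjusted p = 0.000226), Stub1 (−1.08, adjusted p = 0.000231) and Nedd4l (−0.58, adjusted p = 0.00404) fell, and of these Stub1 had 0.00 after the GC correction (adjusted p = 0.981). Among the 4 inhibitors at the receptor, Pmepa1 (−1.35, adjusted p = 0.000117) and Ldlrad4 (−0.59, adjusted p = 0.00758), which keep R-Smads from the receptor, fell together with Fkbp1a (−0.42, adjusted p = 0.0197), and Bambi, a pseudoreceptor, rose (0.70, adjusted p = 0.00802). After the correction, Fkbp1a was at 0.26 (adjusted p = 0.0832) and Bambi at 0.36 (adjusted p = 0.0576), neither called. Without WT sample 5 the 1 inhibitor called higher became 0, and without WT sample 4 or 5 the ligases and deubiquitinases called higher were 1.

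Among the nuclear partners of the Smads, genes listed as co-repressors were called in both directions. Of these 6 genes 2 fell and 2 rose. Ski (log2 fold change −1.27, adjusted p = 0.000199) and Tgif1 (−0.99, adjusted p = 0.000407) were lower and Snw1 (1.17, adjusted p = 0.000659) higher, all 3 called after the GC correction as well. Whether Snw1 acts as a repressor with Smads was not tested. With any sample but Mmp13-/- 6 left out, 1 gene of this list rose. Of 9 co-activators and DNA-binding partners tested, 6 fell and 0 rose at an adjusted p under 0.05. After the GC correction 3 fell, with total counts alone 2 fell, and with upper-quartile factors or without Mmp13-/- sample 6, 1 was called higher. Zfp423 (−1.31, adjusted p = 0.000186), a zinc-finger partner of BMP Smads, Runx3 (−1.11, adjusted p = 0.000399) and the acetyltransferase Kat2b (−0.81, adjusted p = 0.00294) were lower, and Runx3 was not called after the correction (adjusted p = 0.0927).

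Genes known as targets of the pathway included called genes in both directions. Of 15 TGF-β targets, 7 fell and 4 rose, and 6 fell and 4 rose after the GC correction. The genes that rose were not all the same in both fits. The number that rose was 1 without WT sample 2, 4 or 5 or without Mmp13-/- sample 2, and 2 without Mmp13-/- sample 1 or with total counts alone. Beside Smad7, Pmepa1 and the cell cycle inhibitor Cdkn2b (log2 fold change −1.16, adjusted p = 0.000188) had the smallest adjusted p and fell. Of 14 BMP targets, 3 of them Smads, 9 fell and 2 rose. Smad7, Id4 (−1.71, adjusted p = 0.000138), an inhibitor of basic helix-loop-helix factors, and Smad6 had the smallest adjusted p. After the GC correction 3 BMP targets fell and 2 rose, with Id4 at −2.21 (adjusted p = 0.000149) and Smad6 no longer called. The BMP targets that rose were also not all the same genes as before it. Without WT sample 4 the BMP targets that rose numbered 1, and without WT sample 5 they numbered 0.

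**Figure D5:**
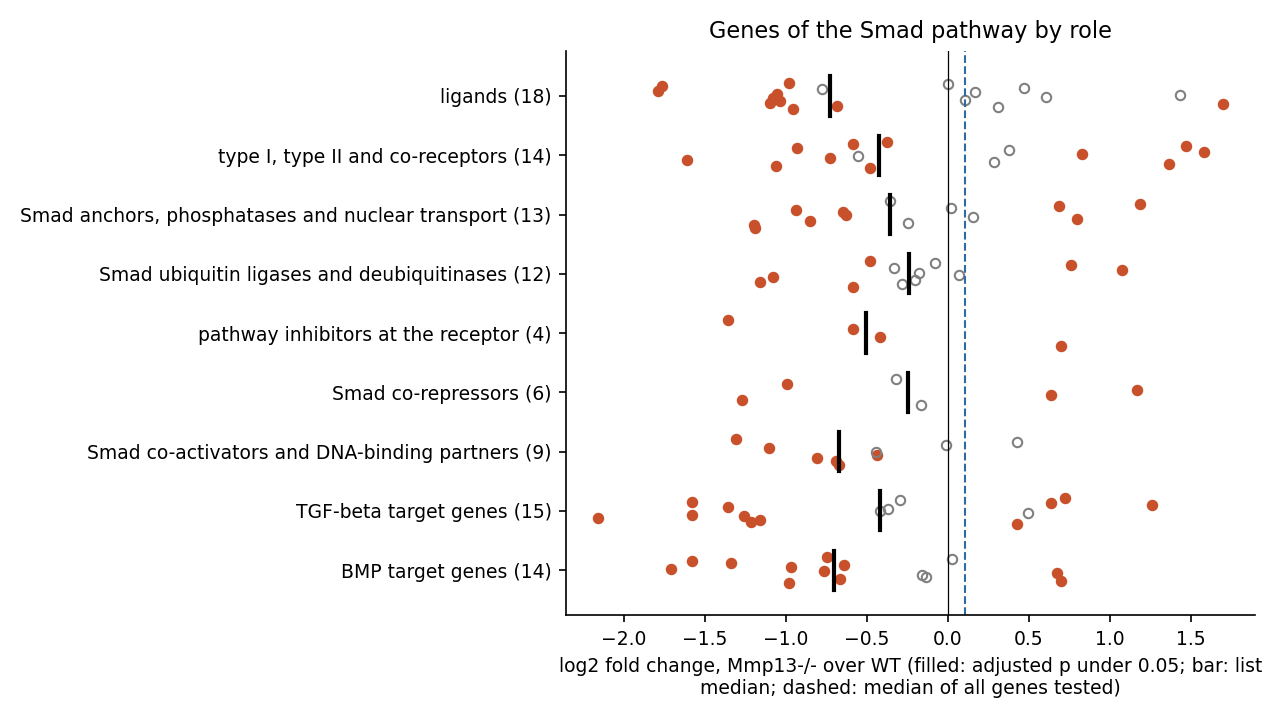
Log2 fold change (Mmp13-/- over WT) of each gene of the Smad pathway in 9 lists by role, with the number tested in brackets. Filled points passed the test at an adjusted p under 0.05, black bars are list medians and the dashed line is the median of all genes tested, 0.10. Every list median lies to the left of the dashed line, from −0.73 for ligands to −0.24 for ubiquitin ligases and co-repressors. The median of abundant genes with a GC value, −0.335, is not drawn. Ubiquitin ligases and co-repressors have medians above it.

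The genes whose pattern over the 6 samples was most like that of a member were found by the Pearson correlation of log2 CPM, among 10777 abundant genes. Nearest to Smad7 were Rbm38, Cbx6 and Nedd4l, the ligase named above, all at r of 0.9996. Nearest to Smad3 were Nos1 (0.9996), Kctd15 (0.9996) and Pdk2 (0.9995), and nearest to Smad4 were Grn (0.9996), Pfn1 (0.9993) and Tmem64 (0.9992). Smad2, which did not pass the test, had Asna1 (0.9965), Btbd10 (0.9952) and Ccdc117 (0.9798). Since the 6 samples form 2 genotypes and share their libraries, a high value here describes a shared pattern between and within the genotypes and was not tested.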

How the data were processed

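RNA sequencing of dental pulp (3 WT, 3 Mmp13-/- mice, paired-end reads) was used as 1 table of 53342 genes, grouped by the genotype in the labels. Strand NGS gave its estimated counts, deposited with fractions, and the authors derived the log2 values from those counts with DESeq size factors, each gene centred on its median over the 6 samples. Per the labels the build is mm10, and the aligner settings are not given in the sources used here. No batch is given, so batch and genotype cannot be told apart.

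Estimated counts were rounded to whole numbers before edgeR 4.0.16 (R 4.3.3) was applied (quasi-likelihood test, TMM factors, edgeR's filter on low counts, Benjamini-Hochberg adjustment over 24534 genes). A gene was called at an adjusted p under 0.05. Normalized counts are scaled to the mean library, and levels per kb use the exon length in GENCODE M21, in which 99.8% of identifiers were found. On simulated data for this comparison, with 200 of 24534 genes changed, edgeR recovered 100% of 4-fold and 59% of 2-fold changes. Changed genes were drawn from those with a mean count above 100, equally up and down, and no repeat excess was simulated. These rates therefore need not hold for the samples here. Totals were 21561420 to 29980236 counts, and pairs of samples differed by more than counting error (chi-square per degree of freedom 24.1 or more).

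Shares and ratios were compared by exact two-sided permutation tests. The GC correction is a loess curve (span 0.4) of each sample on transcript GC content over genes with mean log2 CPM above 3, used as offsets. Further alternatives were other scalings and filters, DESeq2 1.42.0, limma 3.58.1 on the log2 values, the stated gene-by-gene procedure, background subtraction and leaving out each sample. Every member is named. Of each pathway list, the 3 genes with the smallest adjusted p are named, and for some members the 3 genes of most like pattern. Members and lists were chosen with earlier results of these data known. Fkbp1a was named after its value was seen. Ccn2 is listed in the table as Ctgf.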

Additional observations from a re-analysis of the deposited data

How the results depend on the processing

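No paired analysis was possible because the genotypes share only the replicate number 2. Called members numbered 5 lower and 0 higher; 3 were lower with total counts alone (Smad3, Smad6 and Smad7), with limma on the deposited log2 values (the same 3) and with the GC correction (Smad3, Smad4 and Smad7). Smad5 was called higher, as 1 member, with upper-quartile factors, factors without repeat genes and the 10 most abundant genes, at least 10 counts in every sample, background subtraction and without Mmp13-/- replicate 6 (range 0 to 1 over samples left out). Members lower over 2-fold numbered 3, but 2 with upper-quartile factors (Smad3 at −0.96), 0 with the GC correction and 1 (Smad7) with the GC correction on the TMM scale, an alternative chosen after seeing the data. Smad3 and Smad7 were called under all 12 alternatives other than leaving out samples.

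Members that were not called changed sign. Smad2 was at 0.17 with upper-quartile factors, 0.11 with total counts, 0.094 with at least 10 counts in every sample and 0.079 with background subtraction, and from −0.17 to 0.11 with samples left out. Smad5 was at −0.21 with the GC correction on the TMM scale. Smad9 was at −0.078 without a filter, −0.013 with DESeq2, −0.0017 with limma and with the stated procedure and −0.16 with the GC correction on the TMM scale, and from −0.23 to 0.17 with samples left out. The cause of these changes was not tested.

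Pathway genes called lower numbered 49, but 28 with total counts alone and 31 with the GC correction. Those called higher numbered 17, but 5 with the GC correction on the TMM scale and 10 without WT replicate 4 or 5. The share of Smad4 differed by 1.19 points, and by −0.457 without length scaling and −2.22 with the GC correction. Over all genes tested the median log2 fold change, 0.10, was 0.32 with upper-quartile factors, 0.21 with total counts and −0.08 with the GC correction on the TMM scale. The smallest estimated count of a member was 177.4, for Smad9 in Mmp13-/- sample 6. How much counting error adds to the spread of Smad9 was not tested, and 3 samples a genotype limit the precision.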
